A study of Homo sapiens with 9 samples.

Results

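The genes described here make, take up and move cholesterol, or control that supply through the sterol regulatory element binding proteins (SREBPs). They were listed by name: 5 genes of SREBP control, 18 enzymes of the mevalonate and sterol steps, and 7 genes of sterol uptake, transport and efflux, 30 in all. A probe set naming a single gene was found for 28 of the 30, among 18417 genes measured, and the brightest probe set stood for each gene. FDFT1 and HSD17B7 had no such probe set and were not analysed here as single genes.

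SREBP-2, encoded by SREBF2, and SREBP-1, encoded by SREBF1, are transcription factors held in the endoplasmic reticulum membrane. When sterol is low, the escort protein SCAP carries them to the Golgi, where the proteases encoded by MBTPS1 and MBTPS2 release the part that enters the nucleus; when sterol is high, the INSIG proteins keep SCAP in place. In liver cells SREBP-2 mainly drives cholesterol synthesis and uptake genes and SREBP-1 mainly drives fatty acid genes, while the liver X receptors, which sense oxysterols, drive efflux genes such as ABCA1.

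Total RNA was measured on 9 Affymetrix human gene arrays, 3 each for cells transfected with an siRNA specific for YAP, cells transfected with a nonsense siRNA, and untreated cells. All were labelled Hep3B, a human hepatocellular carcinoma line, although the sample titles begin with the letters HUH. Transfected cells were harvested 24 h after transfection with Oligofectamine, following 24 h of growth. The untreated cells received no siRNA. For them 24 h of growth is recorded with no later time, so their time in culture may differ. In comparisons with untreated cells, siRNA, reagent and time in culture cannot be told apart. Nothing in the labels places the samples of a group in separate cultures, so p-values measure the spread between these samples, which may be technical.

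Signals are on a log2 scale, so that a difference of 1 is a doubling, and array medians ran from 7.29 to 7.34. YAP1, the target of the siRNA, stood at 7.54, 7.52 and 7.48 after YAP siRNA, against 8.66, 8.75 and 8.68 after nonsense siRNA and 8.78, 8.62 and 8.69 in untreated cells. It fell by 1.18 between the siRNA groups (limma adjusted p = 4.34e-09). In bulk RNA, fewer cells of a type and less RNA per cell cannot be told apart. Of 9 hepatocyte markers measured, AFP and ALB were among the brightest, at 12.28 to 12.51 and 11.43 to 11.64 over the arrays. Of 7 leukocyte markers PTPRC (5.89 to 6.08), CD3E, ITGAM and CSF1R lay under the median gene at 7.31 on every array, CD14 lay on both sides of it (7.16 to 7.46), and CD68 (7.88 to 8.13) and LYZ (8.75 to 9.09) lay above it. Nonsense siRNA replicate 2 stood apart from its group most: its root mean square deviation from the group mean over all genes was 0.0851, and the other 8 arrays lay between 0.0547 and 0.0795. Results that rest on it are given with and without it.

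Promoters of SREBF2, INSIG1 and SREBF1 are shown because SREBF2 and INSIG1 passed the test between the siRNA groups, and SREBF1 is the paralog of SREBF2. Each window runs from 250 bases before to 50 after the annotated start of transcription, 5′ to 3′ on the gene's strand, from RefSeq on GRCh38.p14: chr22:41832855-41833154 (plus strand) for SREBF2, chr7:155297628-155297927 (plus strand) for INSIG1 and chr17:17836937-17837236 (minus strand) for SREBF1. Capitals mark matches to the sterol regulatory element TCACCCCAC, the E-box-like motif TCANNTGA, and CCAAT, the motif of NF-Y, or their reverse complements.
SREBF2: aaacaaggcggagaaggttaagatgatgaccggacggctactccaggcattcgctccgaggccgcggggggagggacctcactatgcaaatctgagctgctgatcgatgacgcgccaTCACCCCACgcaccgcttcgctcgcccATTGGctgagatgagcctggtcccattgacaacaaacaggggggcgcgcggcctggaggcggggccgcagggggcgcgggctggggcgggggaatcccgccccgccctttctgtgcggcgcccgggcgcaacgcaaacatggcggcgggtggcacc
INSIG1: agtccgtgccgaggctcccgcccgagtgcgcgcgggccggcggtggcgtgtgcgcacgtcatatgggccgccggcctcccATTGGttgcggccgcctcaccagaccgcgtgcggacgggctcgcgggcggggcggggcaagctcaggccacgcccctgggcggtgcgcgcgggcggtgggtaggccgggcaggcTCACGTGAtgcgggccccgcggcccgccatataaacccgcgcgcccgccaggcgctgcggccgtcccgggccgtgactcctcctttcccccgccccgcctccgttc
SREBF1: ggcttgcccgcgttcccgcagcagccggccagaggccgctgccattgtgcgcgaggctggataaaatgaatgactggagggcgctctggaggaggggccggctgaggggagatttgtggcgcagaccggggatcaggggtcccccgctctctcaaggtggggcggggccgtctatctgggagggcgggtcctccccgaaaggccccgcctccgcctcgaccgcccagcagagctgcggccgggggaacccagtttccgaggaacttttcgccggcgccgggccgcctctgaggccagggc

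The SREBF2 window held TCACCCCAC, beginning 133 bases before the start, and a reversed CCAAT beginning 106 bases before it. The INSIG1 window held the E-box-like TCACGTGA, beginning 56 bases before the start, and a reversed CCAAT beginning 170 bases before it. The SREBF1 window held none of these letters. It was the only SREBF1 window searched, so any other start site of that gene is not covered. The tables matched 26 of the 30 listed genes, in 33 windows. SREBF2 was the only one of the 26 with TCACCCCAC, which 0.43% of all 35116 windows hold, or with the looser TCACNCCAC, which includes it and which 1.13% hold. EBP and INSIG1 held TCANNTGA, against 7.31% of all windows. CCAAT was found in 21 of the 33 windows, against 34.6% of all windows. These are matches of letters, and no binding was measured.

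The mean signal of 27 of the 28 genes lay above that of the median gene. HMGCS1, which makes HMG-CoA, was the brightest at 11.38, and DHCR7, a late sterol reductase gene, followed at 11.10. The sterol exporter gene ABCG1, at 6.60, was the one below the median. These signals are not levels per transcript length, so they give no order of abundance.

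How these transcripts differed with YAP lowered, among transfected cells, was read from YAP siRNA against nonsense siRNA. The limma tests took both directions, and p-values were adjusted over the whole gene table (Benjamini-Hochberg) with a threshold of 0.05. SREBF2 and INSIG1 fell, and 0 of the 28 rose. Over all 18417 genes, 4.53% passed by the same rule, 2.61% lower and 1.92% higher. The median difference over the 28 was -0.06, and it was 0.01 over all genes. At an unadjusted p under 0.05, 9 of the 28 were lower and 3 higher, beside 7.69% and 8.08% of all genes. When every probe set on the array was tested, 0 of the 28 passed by limma, and the adjusted p was 0.0675 for SREBF2 and 0.0863 for INSIG1.

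SREBF2, the gene of the main transcription factor of cholesterol synthesis, measured 8.53, 8.63 and 8.61 after YAP siRNA, against 8.87, 8.89 and 8.74 after nonsense siRNA. In untreated cells it measured 8.93, 8.92 and 8.86. All 3 YAP siRNA arrays lay below all 6 control arrays. SREBF2 fell by 0.24 against nonsense siRNA (SE 0.0553, limma adjusted p = 0.0181), to 84.5% of the nonsense siRNA signal, and by 0.31 (adjusted p = 0.00451) to 80.5% of the untreated signal. The call against untreated cells was kept in all 9 fits that left out 1 array, with a highest adjusted p of 0.0384. Against nonsense siRNA the adjusted p became 0.104 when replicate 1 of that group was left out and 0.0982 when YAP siRNA replicate 1 was, so the call was lost in both fits.

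MIR33A, a microRNA gene that lies within SREBF2 at chr22:41900944-41901012 of GRCh38.p14 and is known to repress ABCA1, has its own probe set. That probe set read 5.91, 5.89 and 6.02 after YAP siRNA, against 5.89, 6.0 and 5.98 after nonsense siRNA and 5.97, 5.99 and 5.91 in untreated cells. The groups overlapped, at -0.02 between the siRNA groups (95% interval -0.13 to 0.10), and the signal lay well below the median gene.

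SREBF1 measured 7.82, 7.82 and 7.78 after YAP siRNA, against 7.89, 7.84 and 7.84 after nonsense siRNA and 8.09, 8.03 and 7.98 in untreated cells. Both transfected groups thus lay below every untreated array, and close to each other. SREBF1 fell by 0.22 in YAP siRNA cells against untreated cells (SE 0.0510, limma adjusted p = 0.0249). Against nonsense siRNA its difference was -0.04 (95% interval -0.15 to 0.06), and nonsense siRNA differed from untreated cells by -0.18 (adjusted p = 0.106). The call against untreated cells was lost in 5 of 9 fits without 1 array, with a highest adjusted p of 0.118 without untreated replicate 1, and with arrays centred on their medians (adjusted p = 0.0639).

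INSIG1 encodes the retention protein whose own gene is an SREBP target. It measured 9.08, 8.98 and 9.05 after YAP siRNA, against 9.27, 9.23 and 9.24 after nonsense siRNA and 9.08, 9.11 and 9.21 in untreated cells. YAP siRNA arrays lay clearly below the nonsense siRNA arrays and just below the untreated ones. INSIG1 fell by 0.21 against nonsense siRNA (SE 0.0536, limma adjusted p = 0.0344). Against untreated cells its difference was -0.10 (95% interval -0.21 to 0.02), and nonsense siRNA differed from untreated cells by 0.11 (adjusted p = 0.265). The call was lost in 6 of 9 fits without 1 array, with a highest adjusted p of 0.159 without nonsense siRNA replicate 1, and with quantile normalization (adjusted p = 0.0746).

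INSIG2, the second retention gene, measured 8.60, 8.75 and 8.45 after YAP siRNA, against 8.75, 8.70 and 8.72 after nonsense siRNA and 8.70, 8.60 and 8.75 in untreated cells. The groups overlapped, and the difference of -0.12 between the siRNA groups had a 95% interval of -0.27 to 0.03. SCAP, the escort, measured 8.89, 9.04 and 9.12 after YAP siRNA, against 8.81, 8.92 and 8.77 after nonsense siRNA and 9.02, 9.01 and 8.95 in untreated cells. Its difference between the siRNA groups was 0.18 (adjusted p = 0.143) and against untreated cells 0.02 (adjusted p = 0.904). The nonsense siRNA arrays were the low ones for SCAP, all 3 below the untreated arrays.

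**Figure D1:**
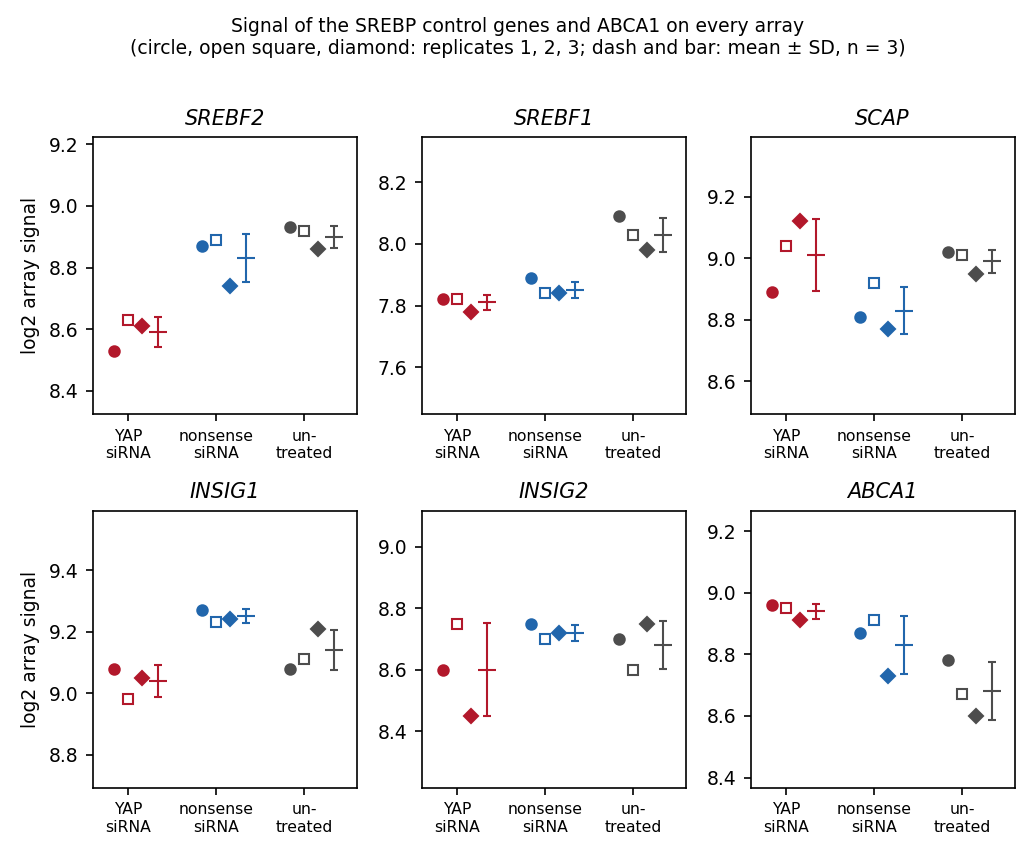
Log2 array signal (vertical axis, a span of 0.9 in every panel) of the 5 SREBP control genes and the efflux gene ABCA1 in YAP siRNA, nonsense siRNA and untreated cells (horizontal axis); points are arrays, and the dash and bar are the mean and SD of 3. SREBF2 is lowest on the 3 YAP siRNA arrays (8.53 to 8.63), SREBF1 is lower in both transfected groups than in untreated cells, and ABCA1 is highest after YAP siRNA.

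Among the enzymes, 16 were measured, and 0 passed between the siRNA groups by limma, beside 4.53% of all genes. At an unadjusted p under 0.05, 7 were lower and 2 higher, against 7.69% and 8.08% of all genes. In 12 of the 16 the difference was below 0, as it was in 44.3% of all genes, and their median was -0.10. The members with the most negative differences come from several points of the route. HMGCS1 acts early in the mevalonate pathway, IDI1 makes the isoprenoid building block, SQLE epoxidizes squalene, and MSMO1 removes methyl groups from the sterol ring.

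HMGCS1 measured 11.33, 11.28 and 11.22 after YAP siRNA, against 11.62, 11.35 and 11.68 after nonsense siRNA and 11.20, 11.39 and 11.38 in untreated cells. Its difference between the siRNA groups was -0.27 (95% interval -0.44 to -0.11, adjusted p = 0.0631). Nonsense siRNA replicate 2 lay near the YAP siRNA arrays, and the other nonsense siRNA arrays lay above every other array.

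MSMO1 showed the same layout, at 9.68, 9.60 and 9.45 after YAP siRNA, against 9.92, 9.66 and 9.94 after nonsense siRNA and 9.46, 9.49 and 9.60 in untreated cells. SQLE read 10.26, 10.23 and 10.18 after YAP siRNA, against 10.50, 10.30 and 10.51 after nonsense siRNA and 10.27, 10.26 and 10.32 in untreated cells. In both genes replicate 2 was again the lowest of the nonsense siRNA arrays, and the YAP siRNA and untreated arrays lay close together. The differences between the siRNA groups were -0.26 for MSMO1 (adjusted p = 0.0742), -0.21 for SQLE (adjusted p = 0.0605) and -0.26 for IDI1 (adjusted p = 0.0819).

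Without nonsense siRNA replicate 2 these 4 enzyme genes fell: HMGCS1 by 0.37 (limma adjusted p = 0.00281), MSMO1 by 0.35 (0.00568), IDI1 by 0.33 (0.0167) and SQLE by 0.28 (0.00559). In the same fit TM7SF2, a sterol reductase gene, rose by 0.25 (adjusted p = 0.0179). Together with SREBF2 and INSIG1 that made 6 of the 28 lower and 1 higher, against 4.43% and 2.25% of all genes in that fit. With that array the count among the enzymes was 0 of 16. HMGCS1 (adjusted p = 0.0466) and SQLE (adjusted p = 0.0448) also passed with it when the fit was limited to genes above the median signal. YAP siRNA replicate 3, whose deviation of 0.0795 was the next highest, was the lowest YAP siRNA array for all 4 genes. Leaving out that array instead gave 1 of the 28 lower, SREBF2, and 0 higher, with 583 genes called in all.

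Other enzymes lay on either side of 0. Between the siRNA groups CYP51A1, a lanosterol demethylase gene, differed by -0.15, ACAT2, which makes acetoacetyl-CoA, by -0.14, NSDHL by -0.14 and the sterol isomerase gene EBP by -0.14. SC5D differed by -0.05, DHCR7 by -0.02, the decarboxylase gene MVD by -0.06 and FDPS, which makes farnesyl diphosphate, by 0.00. TM7SF2 differed by 0.18, the phosphomevalonate kinase gene PMVK by 0.14, the lanosterol synthase gene LSS by 0.09 and the mevalonate kinase gene MVK by 0.01. None of these 12 passed, with adjusted p from 0.157 to 0.996. A second, dimmer probe set of CYP51A1 differed by -0.02.

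TM7SF2, LSS and PMVK showed the reverse layout of HMGCS1 within the nonsense siRNA group, with replicate 2 the highest of its 3 arrays. TM7SF2, for example, measured 8.06, 8.13 and 8.18 after YAP siRNA, against 7.87, 8.09 and 7.88 after nonsense siRNA and 8.03, 7.94 and 8.05 in untreated cells.

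**Figure D2:**
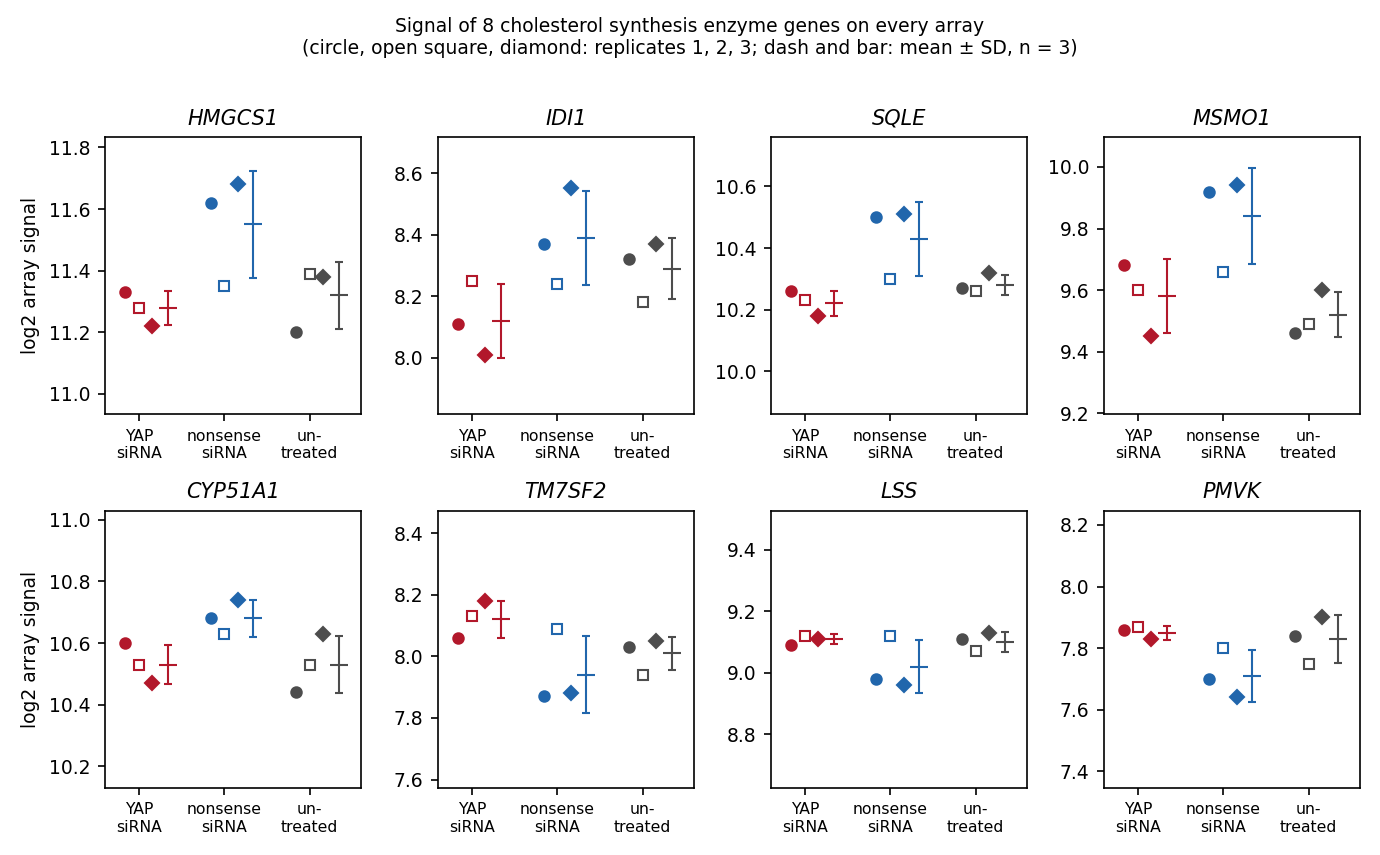
Log2 array signal (vertical axis, a span of 0.9 in every panel) of 8 enzyme genes of cholesterol synthesis in YAP siRNA, nonsense siRNA and untreated cells (horizontal axis); points are arrays, the open square is replicate 2, and the dash and bar are the mean and SD of 3. In HMGCS1, SQLE and MSMO1 nonsense siRNA replicates 1 and 3 stand above the other arrays while replicate 2 lies closer to the YAP siRNA and untreated arrays.

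Of the 7 uptake, transport and efflux genes, 0 passed between the siRNA groups by limma, beside 4.53% of all genes. At an unadjusted p under 0.05 there were 0 lower and 0 higher, beside 7.69% and 8.08% of all genes. Differences of the 7 genes ran from -0.08 for STARD4, a cytosolic sterol carrier gene, to 0.11 for ABCA1. NPC1 and NPC2, whose proteins export cholesterol from lysosomes, differed by 0.09 and -0.05. NPC1L1, a sterol import gene, differed by 0.09, ABCG1 by 0.05 and MYLIP, a ubiquitin ligase gene driven by liver X receptors, by -0.06.

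YAP siRNA was next set against cells that received no siRNA. This comparison shares the YAP siRNA arrays with the comparison above, so the 2 are not independent. SREBF2 and SREBF1 fell and ABCA1 rose, 2 lower and 1 higher of 28, against 3.09% of all genes, 1.46% lower and 1.63% higher. At an unadjusted p under 0.05, 3 of the 28 were lower and 3 higher, against 7.18% and 8.59% of all genes. The median over the 28 was 0.00, and it was -0.01 over all genes.

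ABCA1, whose protein exports cholesterol to apolipoprotein A-I, measured 8.96, 8.95 and 8.91 after YAP siRNA, against 8.87, 8.91 and 8.73 after nonsense siRNA and 8.78, 8.67 and 8.60 in untreated cells. Every YAP siRNA array lay at or above the highest nonsense siRNA array to 2 decimals, and above all untreated ones. ABCA1 rose by 0.26 against untreated cells (SE 0.0619, limma adjusted p = 0.0330), to 120% of the untreated signal. Against nonsense siRNA the difference was 0.11 (95% interval -0.03 to 0.24), and nonsense siRNA differed from untreated cells by 0.15 (adjusted p = 0.207). The call was lost in 5 of 9 fits without 1 array, with a highest adjusted p of 0.138 without YAP siRNA replicate 1.

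Of the 16 enzymes, 0 passed against untreated cells by limma, beside 3.09% of all genes. At an unadjusted p under 0.05, 1 was lower (MVD) and 0 higher, beside 7.18% and 8.59% of all genes. In 7 enzymes the difference lay below 0, as it did in 56.4% of all genes. HMGCS1 differed by -0.05 (95% interval -0.21 to 0.12), SQLE by -0.06 (-0.19 to 0.07) and MSMO1 by 0.06 (-0.11 to 0.23). The enzyme differences seen against nonsense siRNA were thus not detected against untreated cells. Leaving out nonsense siRNA replicate 2 left the count of enzymes passing here at 0. MVD measured 8.98, 8.98 and 8.88 after YAP siRNA, against 9.0, 9.03 and 9.01 after nonsense siRNA and 9.15, 9.15 and 9.05 in untreated cells (difference from untreated -0.17, adjusted p = 0.119). IDI1 was also at -0.17 (95% interval -0.34 to 0.00). Among the transport genes NPC1 differed by 0.13 (adjusted p = 0.234) and NPC2 by 0.19 (adjusted p = 0.308).

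Read array by array, 9 of the 28 genes had all 3 YAP siRNA arrays below all 3 nonsense siRNA arrays, as 8.71% of all genes did, and 3 had them above, as 11.5% did. Against untreated cells 6 were below, beside 10.3% of all genes, and 3 were above, beside 10.2%. In 5 genes, SREBF2, SREBF1, INSIG1, MVD and SQLE, the YAP siRNA arrays lay below all 6 control arrays, as they did in 3.61% of all genes. In NPC1 and ABCA1 they lay above all 6, as in 4.29%. Some of these gaps vanish at 2 decimals. INSIG1 read 9.08 on both YAP siRNA replicate 1 and untreated replicate 1. SQLE read 10.26 on YAP siRNA replicate 1 and untreated replicate 2, and ABCA1 8.91 on YAP siRNA replicate 3 and nonsense siRNA replicate 2. The mean difference from the nearer control group was -0.24 for SREBF2, -0.10 for INSIG1, -0.06 for MVD and SQLE, and -0.04 for SREBF1; it was 0.09 for NPC1 and 0.11 for ABCA1.

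Setting nonsense siRNA against untreated cells compared cells transfected with a control siRNA and cells given none, whose time in culture may also differ. The comparison shares 3 arrays with each of the others. By limma 0 of the 28 passed, beside 0.614% of all genes, 0.277% lower and 0.337% higher. At an unadjusted p under 0.05 there were 3 lower and 7 higher, beside 9.66% and 9.87% of all genes. In 10 of the 28 the difference was below 0, as in 59.3% of all genes. All 3 nonsense siRNA arrays lay below the untreated arrays in 4 genes and above them in 4, as in 13.8% and 8.9% of all genes. The median over the 28 was 0.07, and it was -0.02 over all genes. Among the enzymes 12 of 16 lay above 0.

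MSMO1 had the highest difference, 0.32 (95% interval 0.16 to 0.49, adjusted p = 0.0719), followed by NPC2 at 0.25 and HMGCS1 at 0.23. SREBF1 had the most negative one, -0.18. Without nonsense siRNA replicate 2, MSMO1 rose by 0.41 (limma adjusted p = 0.00488), HMGCS1 by 0.33 (0.0106), NPC2 by 0.33 (0.0303), SQLE by 0.22 (0.0301) and SC5D by 0.22 (0.0452). That is 5 of 28 higher, where 5.60% of all genes were higher in that fit. MSMO1 also passed without YAP siRNA replicate 3 (adjusted p = 0.0473). A test of every probe set called 0 probe sets by limma in this comparison, with 4645 at an unadjusted p under 0.05.

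**Figure D3:**
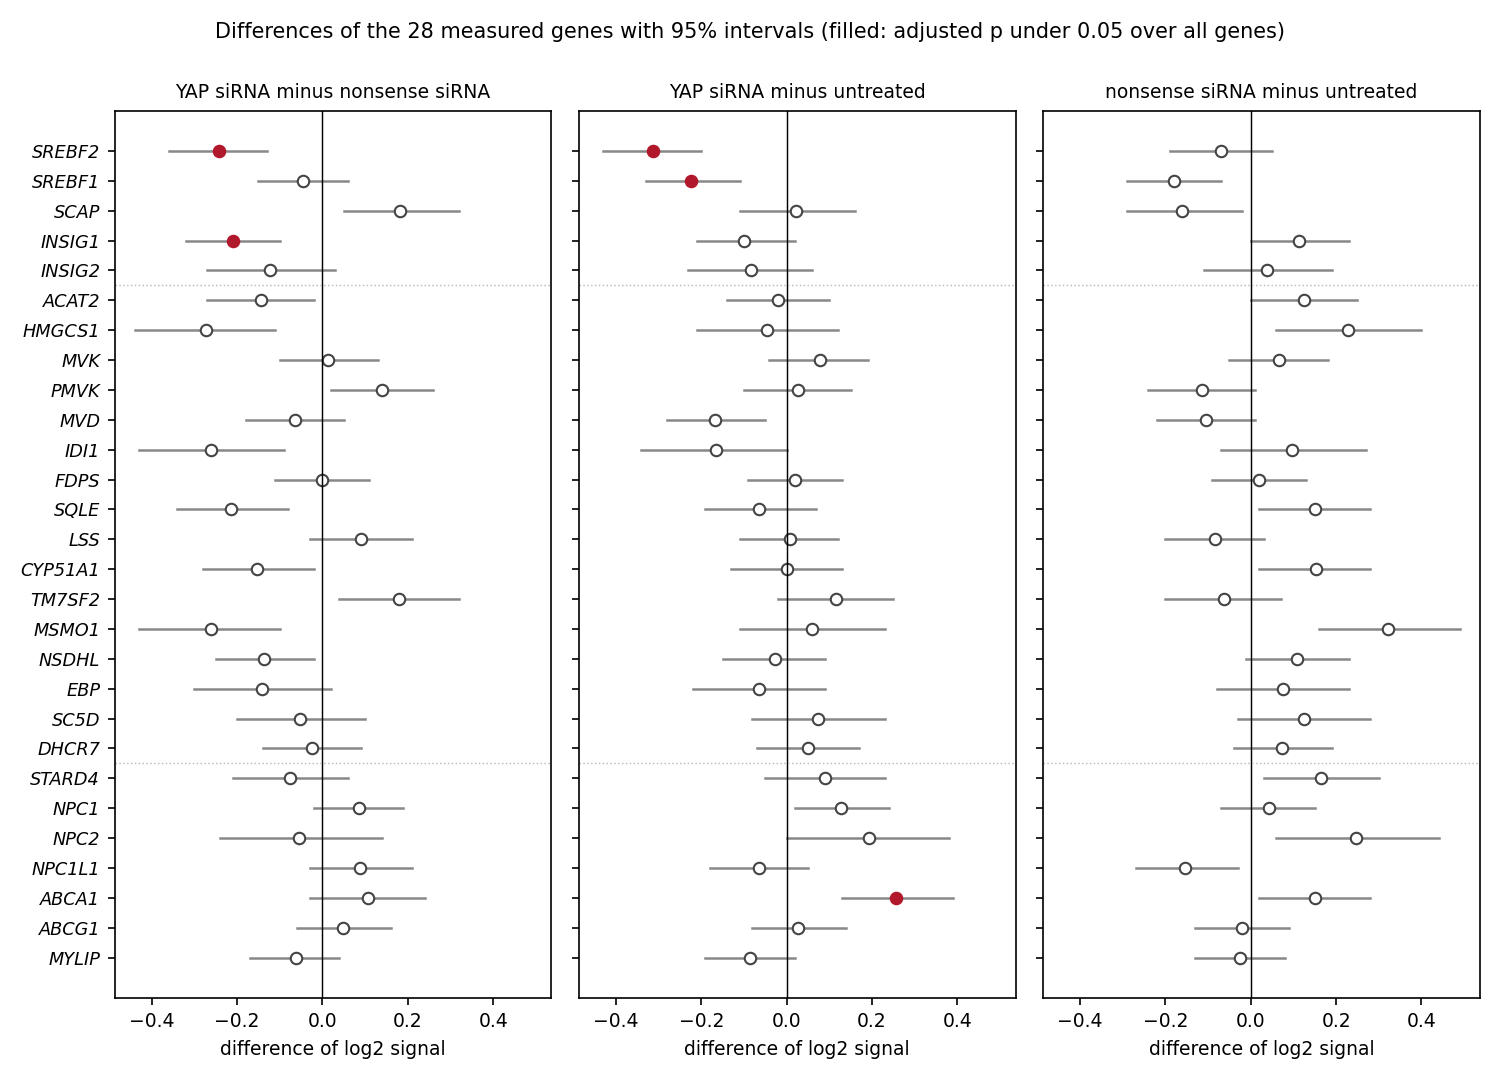
Differences of log2 signal (horizontal axes) for the 28 measured genes (rows, with dotted lines between SREBP control, enzymes and transport genes) in the 3 comparisons; lines are 95% intervals and filled points passed the adjusted threshold of 0.05 over all genes. Filled points are SREBF2 and INSIG1 on the left and SREBF2, SREBF1 and ABCA1 in the middle, and there are none on the right.

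Further genes of the pathway were listed by role, 45 of 51 measured. Between the siRNA groups 1 of the 45 fell and 4 rose, against the 2.61% and 1.92% of all genes given above, and against untreated cells 2 fell and 4 rose, where 1.46% of all genes fell and 1.63% rose. Between nonsense siRNA and untreated cells 0 passed by limma, with 3 lower and 5 higher at an unadjusted p under 0.05, near the 9.66% and 9.87% of all genes at that threshold.

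The proteases that cleave SREBPs moved in opposite directions. MBTPS2, the site-2 protease gene, measured 7.86, 7.93 and 7.83 after YAP siRNA, against 8.31, 8.14 and 8.26 after nonsense siRNA and 8.12, 8.14 and 8.23 in untreated cells. It fell by 0.36 against nonsense siRNA (SE 0.0588, limma adjusted p = 0.00163) and by 0.29 (adjusted p = 0.0115) relative to untreated cells. That last call was lost without YAP siRNA replicate 1 (adjusted p = 0.0595). MBTPS1, the site-1 protease gene, measured 9.53, 9.55 and 9.50 after YAP siRNA, against 9.31, 9.37 and 9.33 after nonsense siRNA and 9.23, 9.32 and 9.33 in untreated cells. It rose by 0.19 against nonsense siRNA (limma adjusted p = 0.0445) and by 0.23 against untreated cells (adjusted p = 0.0182). For both proteases the YAP siRNA arrays were separate from all control arrays. The MBTPS1 call against nonsense siRNA was lost in 6 of 9 fits without 1 array and in 6 of 9 other settings. Among those settings were the replicate block, centred arrays and every probe set tested. Its call against untreated cells was lost in 3 of 9 fits without 1 array. When every probe set was tested, the limma adjusted p against untreated cells was 0.0559 for MBTPS1 and 0.0775 for MBTPS2.

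Genes of sterol storage and trafficking rose in 2 of 13 in each YAP siRNA comparison, and 0 fell. Of all genes 1.92% rose and 2.61% fell between the siRNA groups, and 1.63% rose and 1.46% fell against untreated cells. SOAT2, which esterifies cholesterol in liver cells, measured 8.48, 8.42 and 8.36 after YAP siRNA, against 7.83, 7.97 and 7.87 after nonsense siRNA and 7.91, 8.08 and 8.10 in untreated cells. It rose by 0.53 against nonsense siRNA (limma adjusted p = 0.000122) and 0.39 against untreated cells (adjusted p = 0.00225), and kept both calls in every fit without 1 array. Its paralog SOAT1 differed by -0.09 from nonsense siRNA (adjusted p = 0.726) and by 0.15 from untreated cells (adjusted p = 0.413). OSBP, a sterol transfer protein gene, rose by 0.23 against nonsense siRNA (adjusted p = 0.0234), a call lost in 4 of 9 fits without 1 array. The OSBP call was also lost with centred arrays (limma adjusted p = 0.0505) and when every probe set was tested (0.0734). OSBP differed by 0.09 between YAP siRNA and untreated cells (adjusted p = 0.423). Nonsense siRNA differed from untreated cells by -0.13 (adjusted p = 0.204), with all its arrays lower. LIPA, the lysosomal cholesteryl ester hydrolase gene, rose by 0.30 against untreated cells (adjusted p = 0.0105) and was at 0.21 against nonsense siRNA (adjusted p = 0.0570). The LIPA call against untreated cells was lost in 3 of 9 fits without 1 array, with a highest adjusted p of 0.0713 without YAP siRNA replicate 2, and when every probe set was tested (adjusted p = 0.0747).

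Among liver X receptor genes and targets 1 of 7 passed between the siRNA groups, beside 4.53% of all genes, and 0 against untreated cells, beside 3.09%. LPCAT3, a phospholipid remodelling gene of this list, measured 10.23, 10.18 and 10.15 after YAP siRNA, against 9.76, 9.86 and 9.73 after nonsense siRNA and 10.01, 9.99 and 10.03 in untreated cells. It rose by 0.41 against nonsense siRNA (limma adjusted p = 0.000264), and against untreated cells its difference of 0.18 did not pass (adjusted p = 0.0903). Nonsense siRNA differed from untreated cells by -0.23 (adjusted p = 0.0618). That difference passed without nonsense siRNA replicate 2, at -0.27 (adjusted p = 0.0115), and with quantile normalization (adjusted p = 0.0321). The 3 groups of LPCAT3 values did not overlap. NR1H3, which encodes the receptor LXR-alpha, was at 0.16 (adjusted p = 0.109) between the siRNA groups. Against untreated cells it was at 0.06 (limma adjusted p = 0.612). Nonsense siRNA differed from untreated cells by -0.10 in NR1H3 (adjusted p = 0.303), with all its arrays lower.

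Of 10 fatty acid target genes of SREBP-1, 0 passed between the siRNA groups, beside 4.53% of all genes, and 2 passed against untreated cells, beside 3.09%. Against untreated cells FASN, the fatty acid synthase gene, fell by 0.25 (limma adjusted p = 0.0335) and ELOVL6, a fatty acid elongase gene, rose by 0.27 (adjusted p = 0.0170). Against untreated cells SCD, a fatty acid desaturase gene, was at -0.02 (adjusted p = 0.928) and ACLY, which makes acetyl-CoA, at -0.05 (adjusted p = 0.683). FASN was lost in 5 of 9 fits without 1 array and ELOVL6 in 4. Both calls were also lost when every probe set was tested (limma adjusted p = 0.147 for FASN and 0.0928 for ELOVL6). FASN was lost with centred arrays as well (adjusted p = 0.0688). Between the siRNA groups FASN was at -0.18 (adjusted p = 0.126) and ELOVL6 at 0.17 (adjusted p = 0.135), with the arrays of the 2 groups separate in both genes. Of 8 genes of the nonsterol isoprenoid branch, 0 passed in any comparison by limma; between the siRNA groups 3 were lower and 1 was higher at an unadjusted p under 0.05, beside 7.69% and 8.08% of all genes.

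**Figure D4:**
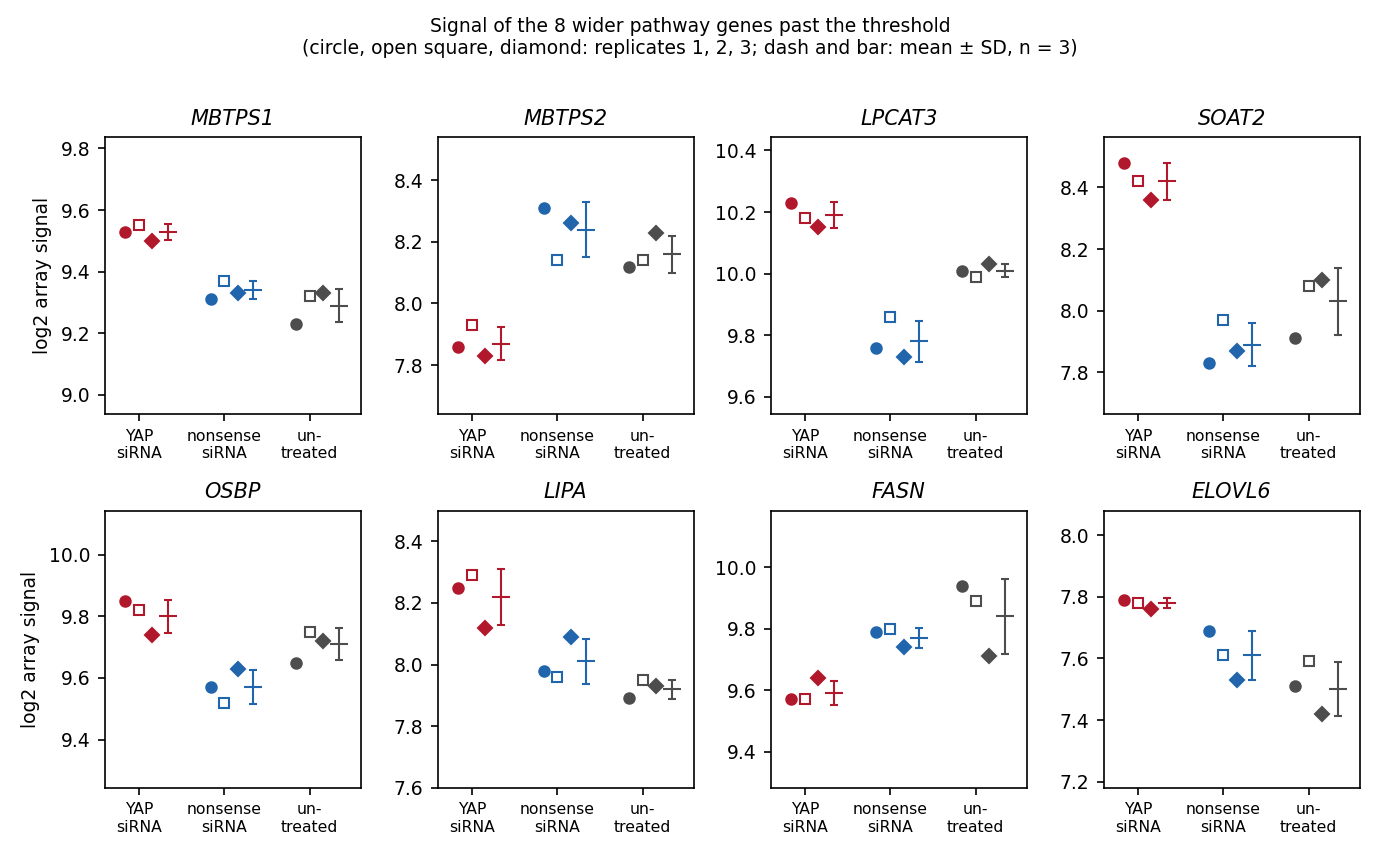
Log2 array signal (vertical axis, a span of 0.9 in every panel) of the 8 further pathway genes that passed in at least 1 comparison, in YAP siRNA, nonsense siRNA and untreated cells (horizontal axis); points are arrays, and the dash and bar are the mean and SD of 3. MBTPS2 is lowest and MBTPS1 and SOAT2 are highest on the 3 YAP siRNA arrays, and LPCAT3 is highest after YAP siRNA and lowest after nonsense siRNA.

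Markers of other cell types were read beside these results. Of 9 stromal and endothelial markers, COL1A2 rose by 0.43 between the siRNA groups (limma adjusted p = 0.000538), the only one to pass. Their summed log2 level ran from 63.34 to 64.00 after YAP siRNA, 62.82 to 63.30 after nonsense siRNA and 63.66 to 64.04 in untreated cells. Of 7 leukocyte markers 0 passed by limma and 0 had an unadjusted p under 0.05, and their summed level ran from 49.95 to 50.75 after YAP siRNA, 49.95 to 50.16 after nonsense siRNA and 50.21 to 50.85 in untreated cells. Of 9 hepatocyte markers AHSG rose by 0.29 between the siRNA groups (adjusted p = 0.0162), and the summed level ran from 93.28 to 93.86 after YAP siRNA, 93.07 to 94.22 after nonsense siRNA and 93.42 to 93.51 in untreated cells. The part of these markers in the results was not tested.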

How the data were processed

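The values were log2 expression signals per probe set, deposited by the authors for 9 arrays; how they were summarised and normalized is not given in the sources used here. Groups were taken from the labels. Probe sets were named through the platform annotation, and those naming 1 gene were kept, the brightest per gene, which left 18417 genes. By the rule for named genes, arrays are given for members that passed and for the SREBP control genes, other members by group, and further pathway genes where they passed. The array values of other enzymes, and MIR33A, SOAT1, NR1H3, SCD and ACLY, were chosen after values were seen. All 9 arrays entered 1 linear model per gene with moderated variances (R 4.3.3, limma 3.58.1), with p-values adjusted by Benjamini-Hochberg over all genes and a threshold of 0.05. The code was tested on simulated data. Promoter windows and positions came from RefSeq tables, read with Python 3.11.15 and pandas 2.3.3; figures used matplotlib 3.10.9. The motif CCAAT and the promoters shown were chosen after results were seen. Alternatives changed the scaling, probe set choice, filter, fit, threshold and arrays. The members and lists were chosen with earlier results of these data known.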

Additional observations from a re-analysis of the deposited data

How the results depend on the processing

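No named gene changed direction while passing the test under any alternative run. Between YAP siRNA and nonsense siRNA, the 2 lower members became 1 with quantile normalization, 4 with genes above the median signal only, and 0 when every probe set was tested or the threshold was 0.01; genes called, 834 in the main fit, became 424 and 396 under the last pair of settings. Between YAP siRNA and untreated cells, the lower members became 1 with centred arrays, with every probe set and at 0.01, the higher members became 0 with every probe set and at 0.01, and genes called, 569, became 205 and 250. Between nonsense siRNA and untreated cells, the 113 genes called became 49 with centred arrays, 0 with every probe set by limma (4645 probe sets at an unadjusted p under 0.05), 67 with only the 6 arrays of the comparison, 11 at 0.01 and 65 with the replicate block. Leaving out 1 array at a time gave 426 to 1231 genes, 0 to 6 lower and 0 to 1 higher members, and a member median of -0.07 to -0.04 between the siRNA groups. Against untreated cells it gave 279 to 775 genes, 1 to 2 lower and 0 to 1 higher members, and a median of -0.01 to 0.02. Between the controls it gave 11 to 1470 genes, 0 lower and 0 to 5 higher members, and a median of 0.04 to 0.07. The highest counts between the siRNA groups and between the controls came without nonsense siRNA replicate 2. The causes of these changes were not tested. Genes higher and lower between the siRNA groups numbered 354 and 480, against 460 and 408 with quantile normalization and 284 and 389 with centred arrays. Against untreated cells they numbered 300 and 269, and 350 and 181 with centred arrays; between the controls 62 and 51, 32 and 17 with centred arrays, and 70 and 79 with quantile normalization. Correlations of deviations were -0.34 to 0.34 for the 9 same-numbered pairs and -0.34 to 0.47 for the 18 others, so the numbers were not taken to pair samples; with the replicate block the members called were 2 lower and 0 higher between the siRNA groups, 2 lower and 1 higher against untreated cells, and 0 by limma between the controls. With 3 arrays a group, the number of arrays limits the precision.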

Other observations

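Probe sets outside the gene fit gave further values. The probe set shared by HSD17B7 and its pseudogene HSD17B7P2 differed by -0.06 between YAP siRNA and nonsense siRNA (adjusted p = 0.854), and by 0.10 between YAP siRNA and untreated cells. A probe set shared by MBTPS2 and YY2 differed by 0.02 between the siRNA groups (adjusted p = 0.928), beside the -0.36 of the probe set naming MBTPS2 alone. The shared probe set read 6.95 to 7.15 over the arrays, below the median gene at 7.31, and does not separate MBTPS2 from YY2. The order of group means YAP siRNA, then untreated, then nonsense siRNA, low to high, was seen in 8 of the 28 genes, against 12.4% of all genes. In 7 more nonsense siRNA was also highest but untreated lowest, against 15% of all genes. With nonsense siRNA lowest, YAP siRNA was highest in 5 (15.3% of all genes) and untreated in 1 (27%). With nonsense siRNA in the middle, untreated was highest in 4 (16.9%) and YAP siRNA in 3 (13.3%).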
